A study of Rattus norvegicus with 9 samples.

Results

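The genes examined were those of aminoacyl-tRNA biosynthesis, the pathway that joins each amino acid to its transfer RNA before translation. A gene was taken as a member when its KEGG annotation in the expression table held an entry for pathway 00970, which gave 46 of the 20645 genes listed. INS-1E cells, an insulin-secreting line derived from a rat insulinoma, were treated for 24 h with bovine serum albumin alone (BSA, the control), with 0.5 mM palmitic acid (PA), or with 0.5 mM PA and 50 µM cyanidin-3-O-glucoside (PA + C3G). PA is a saturated fatty acid used to model lipotoxicity in beta cells, and C3G is an anthocyanin of coloured berries and grains. Polyadenylated RNA from 3 libraries per group was sequenced. Doses and time came from the study's methods, since the labels name the groups only. The methods give the replicates as separate samples of each group and describe experiments in general as biological triplicates, but neither they nor the labels tie these libraries to separate cultures, so p-values measure the spread between these libraries, which may be technical. The comparisons ask how PA changed the expression of these genes, how cells given C3G along with PA differed from cells given PA alone, and how they differed from the control.

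Aminoacyl-tRNA synthetases each recognise one amino acid and its tRNAs and, by charging the correct tRNA, set the fidelity of the genetic code. Most animal cells carry separate nuclear genes for the cytosolic and the mitochondrial enzyme of an amino acid, and a part of the cytosolic enzymes is held in a multi-synthetase complex. Many cytosolic synthetase genes are known targets of the transcription factor ATF4, whose translation rises when eIF2 is phosphorylated, by the kinase GCN2 (Eif2ak4) upon uncharged tRNA or by PERK upon endoplasmic reticulum (ER) stress, a stress to which secretory cells such as beta cells are prone.

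By class, 20 members encode cytosolic synthetases and 17 encode mitochondrial synthetases, whose symbols end in 2. A further 7 are accessory: Gatb, Gatc (listed under 2 overlapping identifiers, here Gatc-a, ENSRNOG00000001161, and Gatc-b, ENSRNOG00000045621) and Qrsl1 form the amidotransferase that makes glutaminyl-tRNA in mitochondria, Mtfmt formylates the mitochondrial initiator tRNA, and Pstk and Sepsecs make selenocysteinyl-tRNA. Tars3, a second cytosolic threonyl-tRNA synthetase annotated as Tarsl2, and LOC100911305, a copy nearly identical to Mars2, were kept apart. Gars and Kars, counted as cytosolic, also give rise to the mitochondrial enzymes for glycine and lysine. Each of the 46 members had a mean of at least 1 FPKM (fragments per kilobase of transcript, scaled to the mapped fragments of the library) over the 9 libraries and was tested among 12958 genes. Their estimated counts lay between 276 and 44509 per library. The 2 Gatc entries overlap by 5362 bases on the same strand and the 2 Mars2 entries share sequence, so reads of either pair could be split between entries.

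Libraries held between 45559993 and 66730721 estimated counts. The 10 beta-cell markers checked were all detected, with summed FPKM between 45558 and 46287 in BSA, between 19109 and 19713 in PA and between 41970 and 47776 in PA + C3G. The sum hides differences between markers. In PA + C3G vs BSA, 4 of the 10 were lower and 2 higher (edgeR, 60.0% called, beside 36.9% of all genes). Their log2 fold changes ran from -1.51 to 0.66 over the 10. Of 19 markers of other cell types, 10 were not matched in the table and 7 of the other 9 stayed below 1 FPKM in every group mean (highest 0.495). Summed FPKM of these 9 ranged from 11.5 to 33.7 in BSA, from 5.50 to 9.99 in PA and from 6.99 to 25.5 in PA + C3G, and came mainly from Gcg. The part that the fall in beta-cell transcripts played in the values below was not tested. In bulk RNA, fewer cells of a type and less RNA per cell cannot be told apart.

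The promoters of the cytosolic genes were read for the C/EBP-ATF response element (CARE), the site through which ATF4 acts. The cytosolic genes Cars, Farsb, Tars1, Vars1 and Yars1 fell with PA and were higher in PA + C3G vs PA. Of these, Farsb and Vars1 held no match. The following sequences are those of the 3 with a match, Cars, Tars1 and Yars1, and were chosen after these values were seen. Each is 300 bases from RefSeq on build GRCr8, 250 before and 50 after the gene's start, written 5′ to 3′ on the gene's strand, with the match to TGATGNAA or, on the other strand, TTNCATCA in capitals. They lie at chr1:208225320-208225619 on the minus strand (Cars, RefSeq symbol Cars1), at chr2:62114753-62115052 on the minus strand (Tars1) and at chr5:146819913-146820212 on the plus strand (Yars1).
Cars: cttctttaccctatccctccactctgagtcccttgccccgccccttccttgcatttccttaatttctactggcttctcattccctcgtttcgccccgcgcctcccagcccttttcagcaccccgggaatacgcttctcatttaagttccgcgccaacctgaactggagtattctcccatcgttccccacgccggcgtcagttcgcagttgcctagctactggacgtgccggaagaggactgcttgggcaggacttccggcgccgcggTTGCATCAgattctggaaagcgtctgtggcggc
Tars1: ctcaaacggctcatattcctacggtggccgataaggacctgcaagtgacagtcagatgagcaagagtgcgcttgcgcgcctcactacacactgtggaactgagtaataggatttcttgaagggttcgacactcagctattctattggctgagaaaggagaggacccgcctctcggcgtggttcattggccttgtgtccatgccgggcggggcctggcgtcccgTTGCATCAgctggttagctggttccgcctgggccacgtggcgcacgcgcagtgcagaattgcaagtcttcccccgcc
Yars1: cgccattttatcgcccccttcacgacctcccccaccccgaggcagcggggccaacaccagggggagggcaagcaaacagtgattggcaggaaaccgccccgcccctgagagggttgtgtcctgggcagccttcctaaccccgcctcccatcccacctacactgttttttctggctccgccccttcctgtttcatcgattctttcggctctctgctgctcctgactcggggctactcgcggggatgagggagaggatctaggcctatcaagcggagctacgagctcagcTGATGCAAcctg
The match begins 27 bases before the start in Tars1, and at base 18 after the start in Cars and base 39 after it in Yars1.

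Of the 40 members with an entry in the promoter table, 7 held the CARE letters (17.5%), against 3.98% of 33469 promoters of the same length. The latter share is over every promoter listed and, unlike the members, was not limited to the 12958 genes tested. All 7 were cytosolic, out of 17 cytosolic genes with an entry, and none of 16 mitochondrial or 6 accessory entries held a match. Gatc-a and Gatc-b share the same promoter and are both counted. Beside the 3 genes above, the matches were in Aars, Iars1, Mars1 and Nars1. Of 8 matches in all, 7 spelled TGATGCAA, and the exception was the second of 2 matches in Aars. The stretches below, of 24 bases on the gene's strand, show the sites of 3 genes that did not pass the test with PA. Nars1, which also did not pass, held TGATGCAA as written, 14 bases before its start, and its stretch is not shown.
Aars, chr19: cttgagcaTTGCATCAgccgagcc
Aars, second match, chr19: gggtcactTTTCATCAgagcgctc
Iars1, chr17: tgtcagtaTTGCATCAcctccaga
Mars1, chr7: cgttccggTTGCATCAgcgtgggc
The ER stress element, CCAAT and CCACG parted by 9 bases and read on both strands, was in none of the 40 promoters and in 0.0657% of all promoters. Members with no entry in the table included Dars, Gars, LOC100911305, Rars1 and Sepsecs. A match of letters describes the window and is not evidence of binding.

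In control cells the cytosolic genes were expressed above the mitochondrial ones on the FPKM scale, which is per length. Mean FPKM in BSA ran from 20.2 (Farsa, the alpha subunit of the phenylalanyl enzyme) to 225 (Gars, the glycyl enzyme) with a median of 63.8 over the 20 cytosolic genes. Over the 17 mitochondrial genes it ran from 3.18 (Mars2) to 20.1 (Tars2) with a median of 7.55. In the 14 amino acids with 1 cytosolic and 1 mitochondrial gene, the ratio of the levels had a median of 9.34. The lowest cytosolic gene, Farsa, lay just above the highest mitochondrial gene, Tars2.

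PA changed the cytosolic genes in both directions. Of the 20, 5 rose and 9 fell (70%), with a median log2 fold change of -0.13, while 51% of all genes tested passed the same threshold (25.8% higher and 25.2% lower) and the median over all genes was 0.00. Calls were made with edgeR's quasi-likelihood test at a Benjamini-Hochberg adjusted p under 0.05 over all genes. The risers were Sars1, Qars1, Hars1, Eprs and Kars, and those that fell were Cars, Tars1, Vars1, Yars1, Farsa, Farsb, Gars, Dars and Rars1. In spite of these shifts the summed level of the 20 genes was 1567 ± 92.5 FPKM in BSA and 1566 ± 53.6 FPKM in PA (SD, n = 3), a difference within the spread of either group. The sum weights genes by their level and includes Sars1, whose mean went from 148 FPKM in BSA to 229 FPKM in PA. By the stricter rule of a fold change above 2 with an unadjusted p under 0.05, none of the 46 members passed by edgeR, DESeq2 or limma in any comparison, whereas 7.56% of all genes did in PA vs BSA, 1.13% in PA + C3G vs PA and 4.63% in PA + C3G vs BSA. At an unadjusted p under 0.05 alone, 12 members were higher and 12 lower with PA by edgeR.

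**Figure D1:**
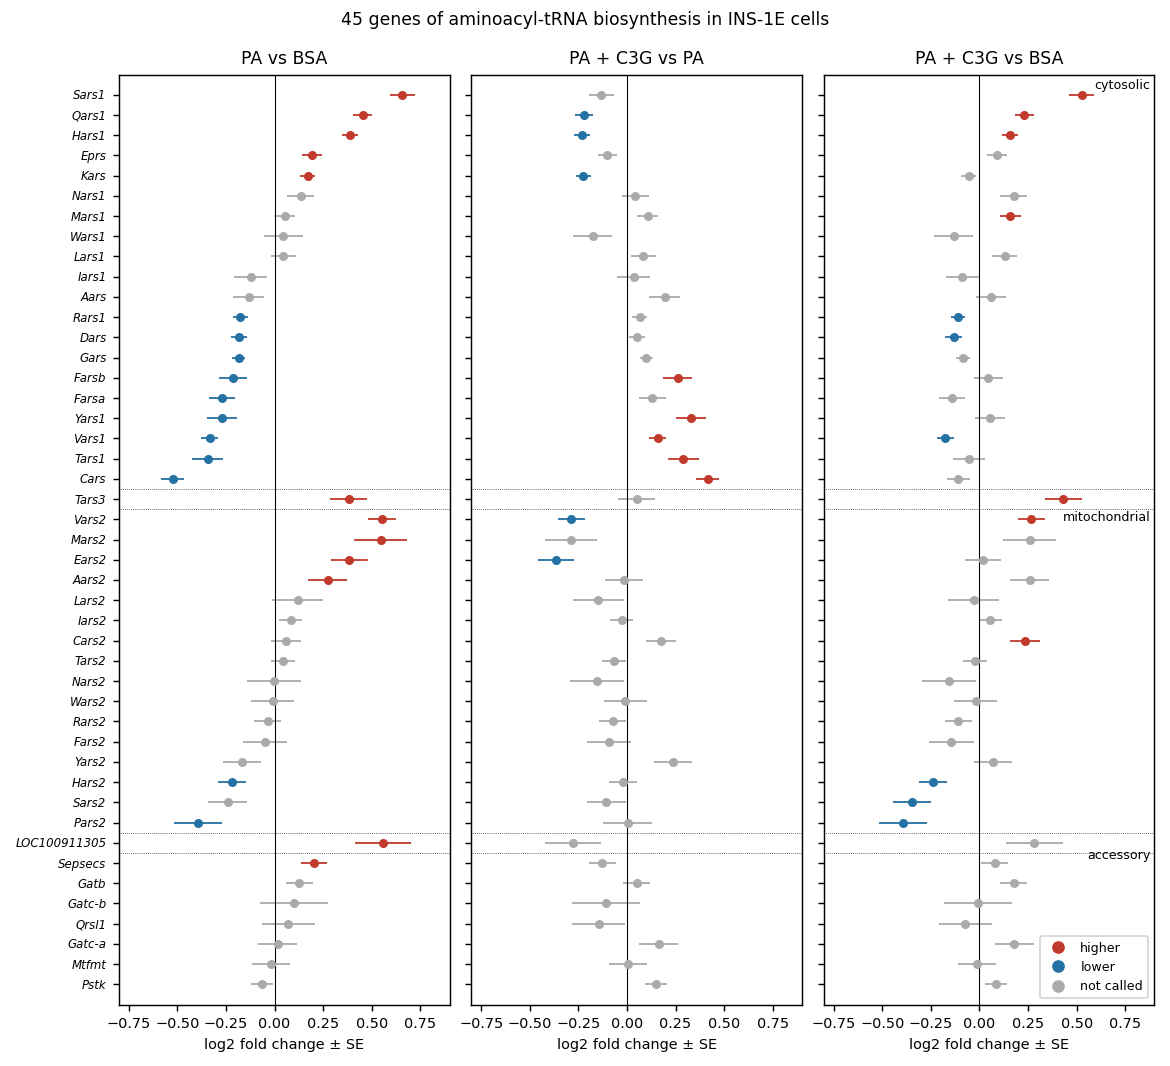
Log2 fold change ± SE (x axis) of 45 members, 1 row per gene, in PA vs BSA, PA + C3G vs PA and PA + C3G vs BSA, with 3 libraries per group. Dotted lines part the cytosolic genes, Tars3, the mitochondrial genes, LOC100911305 and the accessory genes; red and blue mark genes higher or lower at an adjusted p under 0.05 (edgeR), and with PA Sars1 (0.66) and Cars (-0.52) mark the ends of the range.

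Sars1, which charges serine and also the tRNA that becomes selenocysteinyl-tRNA, was at 161, 135 and 148 FPKM with BSA, 222, 226 and 240 with PA, and 215, 196 and 202 with PA + C3G. Every PA and PA + C3G library lay above every BSA library. The log2 fold change with PA was 0.66 ± 0.06 (SE, n = 3; edgeR's quasi-likelihood test, adjusted p = 2.14e-05), and Sars1 went from below Gars in BSA to the highest cytosolic level in PA, at 229 FPKM. Qars1, the glutaminyl enzyme of the multi-synthetase complex, read 22.7, 23.3 and 21.7 FPKM with BSA, 31.1, 29.0 and 30.8 with PA, and 24.1, 25.9 and 26.1 with PA + C3G. These 3 groups did not overlap and PA + C3G stood in the middle. Its log2 fold change with PA was 0.45 ± 0.05 (edgeR, adjusted p = 3.46e-05). Hars1, the histidyl enzyme, read 45.6, 46.6 and 46.4 FPKM with BSA, 61.2, 58.4 and 58.8 with PA, and 49.8, 46.9 and 51.3 with PA + C3G. It showed the same order of groups without overlap, with a log2 fold change of 0.39 ± 0.04 for PA (edgeR, adjusted p = 4.06e-05). Smaller rises were found for Eprs, the joint glutamyl and prolyl enzyme (0.19 ± 0.05, edgeR adjusted p = 0.00952), and Kars, the lysyl enzyme (0.17 ± 0.04, edgeR adjusted p = 0.00474).

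Among the genes that fell with PA, Cars, the cysteinyl enzyme, moved most. Its level was 45.6, 38.9 and 41.6 FPKM with BSA, 29.3, 29.3 and 27.6 with PA, and 35.9, 37.9 and 38.2 with PA + C3G, so that all groups were apart and the PA libraries were lowest. The log2 fold change was -0.52 ± 0.06 (edgeR, adjusted p = 5.4e-05). Tars1, the main threonyl enzyme, was at 65.4, 54.9 and 65.8 FPKM with BSA, 51.8, 43.4 and 48.9 with PA, and 60.2, 56.2 and 55.4 with PA + C3G. Its PA libraries lay below both other groups, which overlapped each other, and the log2 fold change with PA was -0.34 ± 0.08 (edgeR, adjusted p = 0.00579). Vars1, the valyl enzyme, was at 73.3, 67.4 and 71.4 FPKM with BSA, 57.3, 52.3 and 56.0 with PA, and 60.8, 59.9 and 59.4 with PA + C3G. No groups overlapped, and the log2 fold change with PA was -0.33 ± 0.04 (edgeR, adjusted p = 0.000156). In the table's coordinates Vars1 (20:4993560-5008259, plus strand) shares 6486 bases with another gene model of the same strand, so its reads could be split.

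Yars1, the tyrosyl enzyme, gave 160, 135 and 149 FPKM with BSA, 131, 109 and 122 with PA, and 157, 144 and 142 with PA + C3G. The PA libraries were the lowest and BSA and PA + C3G overlapped. With PA the log2 fold change was -0.27 ± 0.08 (edgeR, adjusted p = 0.0145). Farsa and Farsb, the 2 subunits of one phenylalanyl enzyme, fell together. Farsa was at 19.4, 20.7 and 20.5 FPKM with BSA, 16.0, 17.4 and 15.9 with PA, and 17.3, 18.8 and 16.6 with PA + C3G, and Farsb at 34.1, 30.5 and 30.6, then 27.4, 25.6 and 27.6, then 33.9, 28.1 and 32.1. For both, the PA libraries were below every BSA library. The log2 fold changes were -0.27 ± 0.07 (edgeR, adjusted p = 0.00758) for Farsa and -0.21 ± 0.07 (edgeR, adjusted p = 0.0333) for Farsb. Gars, Dars and Rars1, the glycyl, aspartyl and arginyl enzymes, each fell by 0.18 on the log2 scale (edgeR, adjusted p = 0.00155, 0.00501 and 0.00363). The 6 cytosolic genes that did not pass (Aars, Iars1, Lars1, Mars1, Nars1 and Wars1) had log2 fold changes between -0.13 and 0.13.

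**Figure D2:**
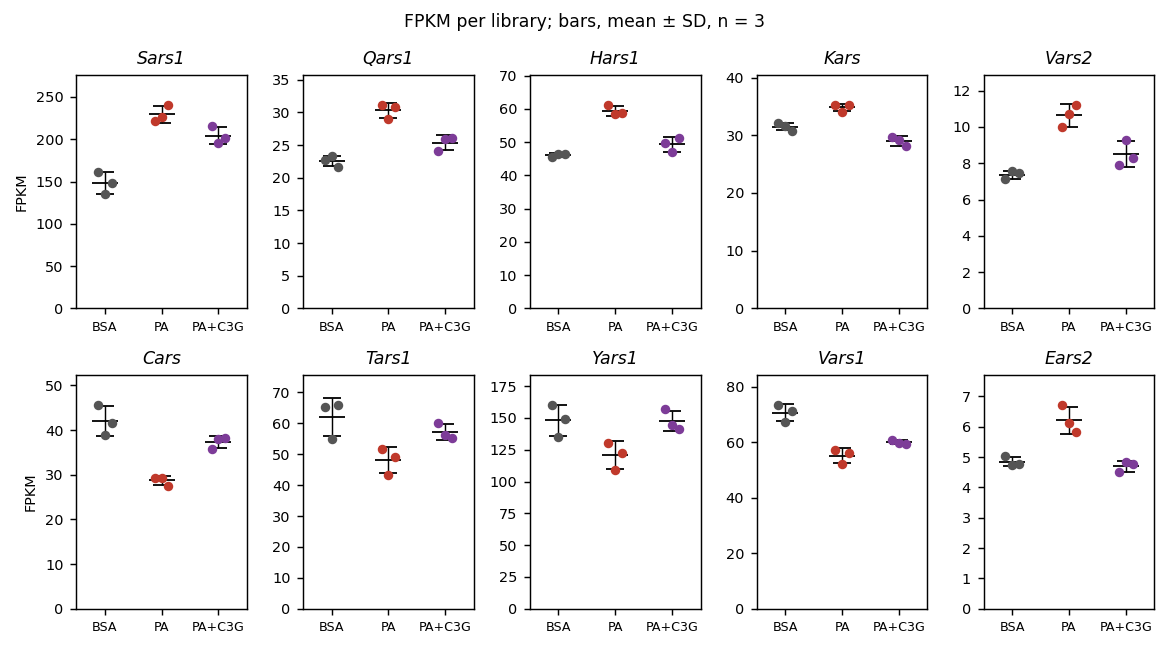
FPKM (y axis, from 0) of 10 genes in each library of the BSA, PA and PA + C3G groups; points are libraries and bars give the mean ± SD (n = 3). For Cars the PA libraries (27.6 to 29.3) lie below all others, and for Qars1 and Hars1 the PA libraries lie above all others.

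Fewer of the mitochondrial synthetases passed with PA. Of 17, 4 rose (Vars2, Mars2, Ears2 and Aars2) and 2 fell (Pars2 and Hars2), which is 35.3% beside the 51% of all genes, and the median log2 fold change was 0.04. Their levels were lower, with a median of 7.55 FPKM in BSA against 63.8 for the cytosolic genes. The part that the precision of the test at such levels played in this share was not tested. Rescaling each library to an equal FPKM sum (TPM scaling) left 4 higher and 1 lower. Vars2, the mitochondrial valyl enzyme, was at 7.13, 7.56 and 7.44 FPKM with BSA, 9.98, 10.7 and 11.2 with PA, and 7.91, 9.28 and 8.31 with PA + C3G. The groups did not overlap and PA was highest, with a log2 fold change of 0.55 ± 0.07 (edgeR, adjusted p = 0.000121). Mars2, the mitochondrial methionyl enzyme, was at 3.59, 2.88 and 3.06 FPKM with BSA, 4.35, 4.48 and 4.87 with PA, and 3.31, 3.48 and 4.14 with PA + C3G, and rose with PA by 0.55 ± 0.14 on the log2 scale (edgeR, adjusted p = 0.00759). Its copy LOC100911305 was at 3.49, 2.77 and 2.80, then 4.18, 4.32 and 4.63, then 3.09, 3.41 and 4.05 FPKM, with a log2 fold change of 0.56 ± 0.15 (edgeR, adjusted p = 0.00956). The ratio of the levels of the pair stayed between 1.02 and 1.09 in the 9 libraries, so they are not 2 independent observations.

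Ears2, which in mitochondria charges both the glutamate and the glutamine tRNA with glutamate, was at 5.02, 4.74 and 4.78 FPKM with BSA, 6.70, 6.12 and 5.84 with PA, and 4.50, 4.84 and 4.78 with PA + C3G. The PA libraries stood above all others and the remaining groups overlapped. With PA it rose by 0.38 ± 0.09 on the log2 scale (edgeR, adjusted p = 0.0068). The amidotransferase genes that act on its product did not pass the test, with log2 fold changes of 0.13 (Gatb), 0.02 and 0.10 (the 2 Gatc entries) and 0.07 (Qrsl1). Aars2, the mitochondrial alanyl enzyme, rose by 0.27 ± 0.10 (edgeR, adjusted p = 0.0438). Pars2, the mitochondrial prolyl enzyme, was at 4.17, 5.26 and 4.70 FPKM with BSA, 3.14, 3.81 and 3.62 with PA, and 3.41, 3.09 and 3.82 with PA + C3G. Both PA groups were below BSA, and the log2 fold change with PA was -0.40 ± 0.12 (edgeR, adjusted p = 0.023). Hars2, the mitochondrial histidyl enzyme, was at 12.1, 11.6 and 10.8 FPKM with BSA, 10.7, 8.97 and 9.58 with PA, and 9.10, 9.24 and 9.75 with PA + C3G. It lay lower in both PA groups, by -0.22 ± 0.07 on the log2 scale with PA (edgeR, adjusted p = 0.0299).

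Tars3 was at 6.53, 7.27 and 7.60 FPKM with BSA, 8.54, 9.33 and 9.55 with PA, and 8.32, 9.83 and 9.50 with PA + C3G, so both groups given PA were above the control. It rose with PA by 0.38 ± 0.10 on the log2 scale (edgeR, adjusted p = 0.00768), whereas Tars1 fell. Of the 7 accessory genes only Sepsecs, the last enzyme of selenocysteinyl-tRNA synthesis, rose (0.20 ± 0.07, edgeR adjusted p = 0.0286), and Pstk, the kinase of the step before, had a log2 fold change of -0.06. Over all 46 members 12 rose and 11 fell with PA, 50% against 51% of all genes tested.

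Of the 23 calls with PA, 17 held under each of the 19 alternatives that tested the gene, and 6 were lost when 1 library was left out. Yars1 lost its call without BSA replicate 1 or PA replicate 2 (edgeR, adjusted p between 0.0504 and 0.0505). Pars2 lost it without BSA replicate 2 or 3 or PA replicate 1 or 3 (edgeR, adjusted p between 0.0509 and 0.0803). Farsb lost it without BSA replicate 1 or any PA replicate (edgeR, adjusted p between 0.0553 and 0.102) and with TPM scaling (edgeR, adjusted p = 0.0631). Hars2 lost it without BSA replicate 1 or 2 or PA replicate 2 or 3 (edgeR, adjusted p between 0.0611 and 0.0982), and with TPM scaling or only the 2 groups in the fit (edgeR, adjusted p between 0.055 and 0.0653). Sepsecs lost it without BSA replicate 1 or 3 or PA replicate 1 or 2 (edgeR, adjusted p between 0.0714 and 0.117) and with limma at either pseudocount (adjusted p between 0.0642 and 0.0644). For Aars2, the weakest of them, this was so without BSA replicate 1 or 3, any PA replicate or PA + C3G replicate 1 (edgeR, adjusted p between 0.0537 and 0.158), and with no filter or with limma (edgeR and limma, adjusted p between 0.0561 and 0.0701).

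In 2 amino acids the cytosolic and mitochondrial genes moved in opposite directions with PA. Valine had Vars1 lower and Vars2 higher, and histidine had Hars1 higher and Hars2 lower. In the table's coordinates Hars1 (18:29611547-29629087, minus strand) and Hars2 (18:29629184-29638721, plus strand) lie head to head, 96 bases apart. In 5 amino acids the cytosolic gene alone fell, in 1 (serine) it alone rose, in 2 (methionine and alanine) the mitochondrial gene alone rose, and in the other 4 neither passed. Over all genes tested 25.8% were higher and 25.2% lower with PA. How often other pairs of genes moved in opposite directions was not computed, so these counts describe the 14 pairs only.

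Within a library the ratio of Vars1 to Vars2 FPKM was 10.3, 8.91 and 9.60 with BSA, 5.74, 4.88 and 5.00 with PA, and 7.69, 6.45 and 7.15 with PA + C3G. The ratio of Hars1 to Hars2 was 3.77, 4.01 and 4.28 with BSA, 5.74, 6.51 and 6.14 with PA, and 5.47, 5.08 and 5.26 with PA + C3G. For Sars1 to Sars2 it was 19.7, 17.0 and 22.7 with BSA, 38.0, 35.3 and 36.5 with PA, and 38.9, 33.9 and 35.0 with PA + C3G. These ratios, chosen after their values were seen, did not overlap between BSA and PA (two-sided exact permutation test, p = 0.1 for each, the smallest that 3 against 3 libraries allow). Of the 14 ratios computed, 9 (64.3%) did not overlap between BSA and PA. The FPKM of single genes did not overlap in 59.9% of all genes tested, and 51% were called, so the count is near that of single genes; ratios of other gene pairs were not computed.

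**Figure D3:**
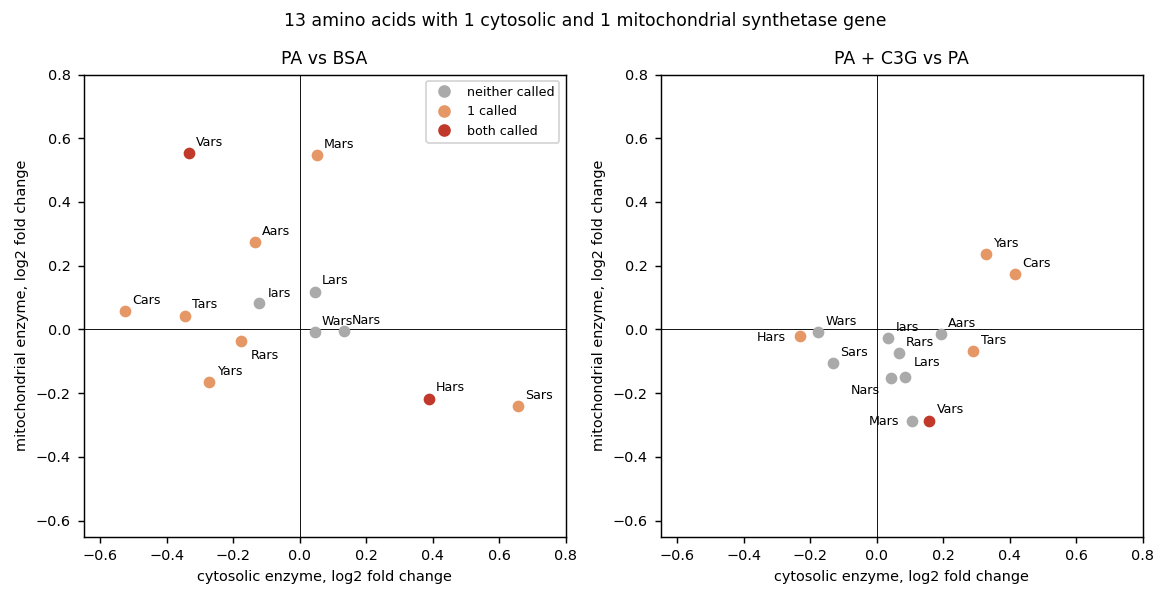
Log2 fold change of the cytosolic gene (x axis) against that of the mitochondrial gene (y axis) for 13 amino acids, in PA vs BSA and in PA + C3G vs PA; each point is 1 amino acid, named by the shared part of the symbols. With PA valine (-0.33 and 0.55) and histidine (0.39 and -0.22) have both genes called, in opposite directions.

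Cells given C3G with PA differed from cells given PA alone in 10 of the 46 members, 5 higher and 5 lower. This was 21.7% of them, and 21.2% of all genes tested passed (11.1% higher and 10.2% lower). The higher ones were all cytosolic: Cars, Yars1, Tars1, Farsb and Vars1, whose log2 fold changes in PA vs BSA were -0.52, -0.27, -0.34, -0.21 and -0.33. Lower were the cytosolic Hars1, Kars and Qars1 and the mitochondrial Ears2 and Vars2, whose log2 fold changes in PA vs BSA were 0.39, 0.17, 0.45, 0.38 and 0.55. Both comparisons use the same PA libraries, so the values are not independent of each other. The split depended on scaling: over the 20 cytosolic genes it was 5 higher and 3 lower, but TPM scaling gave 1 and 5, and limma on log2(FPKM + 1) gave 2 and 3.

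Cars had the largest difference, at 0.41 ± 0.06 on the log2 scale (edgeR, adjusted p = 0.00155). Its PA + C3G libraries lay below those of BSA in FPKM, but Cars did not pass in PA + C3G vs BSA (-0.11 ± 0.06, edgeR adjusted p = 0.178). In that comparison the FPKM did not overlap in 50.3% of all genes tested. Against PA, Yars1 followed at 0.33 ± 0.08 (edgeR, adjusted p = 0.0156), then Tars1 at 0.29 ± 0.08 (edgeR, adjusted p = 0.0318), Farsb at 0.26 ± 0.07 (edgeR, adjusted p = 0.032) and Vars1 at 0.16 ± 0.04 (edgeR, adjusted p = 0.0302). For these genes, as listed above, PA + C3G libraries lay above all PA libraries. In the other direction Ears2 differed by -0.37 ± 0.09 (edgeR, adjusted p = 0.0222), Vars2 by -0.29 ± 0.07 (edgeR, adjusted p = 0.0178), Hars1 by -0.23 ± 0.04 (edgeR, adjusted p = 0.00469) and Qars1 by -0.22 ± 0.05 (edgeR, adjusted p = 0.0105). Kars was at 32.1, 31.5 and 30.8 FPKM with BSA, 35.2, 34.1 and 35.2 with PA, and 29.8, 29.2 and 28.1 with PA + C3G. Its PA + C3G libraries were below both other groups in FPKM, with a log2 fold change of -0.23 ± 0.04 against PA (edgeR, adjusted p = 0.00381). Against BSA, Kars did not pass (-0.06 ± 0.04, edgeR adjusted p = 0.299). Sars1, the gene that rose most with PA, did not pass in PA + C3G vs PA (-0.13 ± 0.06, edgeR adjusted p = 0.181).

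Only Cars, Hars1, Kars and Qars1 kept their call under all 19 alternatives. Yars1 lost it without PA + C3G replicate 1 (edgeR, adjusted p = 0.0552) and with TPM scaling (edgeR, adjusted p = 0.0578). Tars1 lost it without PA replicate 2 or 3 or any PA + C3G replicate (edgeR, adjusted p between 0.0587 and 0.1), as did Vars1 (edgeR, adjusted p between 0.0665 and 0.0963). Farsb lost it without any PA replicate or PA + C3G replicate 1 or 3 (edgeR, adjusted p between 0.068 and 0.113), and these 3 genes also with TPM scaling and limma. Ears2 lost it without PA replicate 1 or 2 or PA + C3G replicate 1 or 3 (edgeR, adjusted p between 0.0503 and 0.0793), and Vars2 without PA replicate 2 or 3 or PA + C3G replicate 1 or 3 (edgeR, adjusted p between 0.0508 and 0.0673). The count of cytosolic calls thus fell from 8 to 5 without PA replicate 2, PA replicate 3 or PA + C3G replicate 3, and to 4 without PA + C3G replicate 1.

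No mitochondrial gene was higher with C3G than with PA alone by edgeR, DESeq2 or limma, and 2 of 17 were higher at an unadjusted p under 0.05 (edgeR). With the 2 that were lower, 11.8% of the 17 were called by edgeR, beside 21.2% of all genes tested (11.1% higher and 10.2% lower). The median log2 fold change of the 17 was -0.07, beside -0.00 for all genes. Their summed level was 155, 155 and 152 FPKM with BSA, 156, 156 and 157 with PA, and 145, 149 and 143 with PA + C3G. The PA + C3G libraries were thus the lowest, while the cytosolic sum, 1576 ± 49.4 FPKM (SD, n = 3), lay within the range of the other groups. On the FPKM scale the median log2 fold change of all genes was also below 0 with PA + C3G. It was -0.05 against BSA and -0.04 against PA (limma on log2(FPKM + 0.1)). By edgeR, the median of the 17 genes against BSA was -0.02. None of the 7 accessory genes passed in PA + C3G vs PA by edgeR, where 21.2% of all genes did, nor by DESeq2 or limma. Of the 7, 1 was higher at an unadjusted p under 0.05 (edgeR). With TPM scaling 1 passed, Sepsecs, with a log2 fold change of -0.21 (edgeR, adjusted p = 0.0412).

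Compared with BSA, PA + C3G left 7 members higher and 6 lower, 28.3% where 36.9% of all genes passed (19% higher and 17.9% lower). Sars1 (0.53 ± 0.06, edgeR adjusted p = 0.000163), Tars3 (0.43 ± 0.10, edgeR adjusted p = 0.00603), Qars1 (0.23 ± 0.05, edgeR adjusted p = 0.00406) and Vars1 (-0.18 ± 0.04, edgeR adjusted p = 0.0111) kept their calls under all 19 alternatives. Vars2 (0.27 ± 0.07, edgeR adjusted p = 0.0143), Hars1 (0.16 ± 0.04, edgeR adjusted p = 0.0155) and Mars1, the methionyl enzyme (0.16 ± 0.05, edgeR adjusted p = 0.0424) were also higher. Pars2 (-0.39 ± 0.12, edgeR adjusted p = 0.0325), Hars2 (-0.24 ± 0.07, edgeR adjusted p = 0.0281), Dars (-0.13 ± 0.04, edgeR adjusted p = 0.0334) and Rars1 (-0.11 ± 0.04, edgeR adjusted p = 0.0472) were lower. Of the cytosolic genes 4 were higher and 3 lower, but 2 higher and 6 lower with TPM scaling and with limma. Of the mitochondrial genes 2 were higher and 3 lower, against 1 and 3 with TPM scaling and 0 and 3 with limma on log2(FPKM + 1), where 2 were higher at an unadjusted p under 0.05.

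Cars2 and Sars2 passed against BSA here, and by edgeR with all libraries did not pass in PA vs BSA, where their log2 fold changes were 0.06 and -0.24. Sars2 did pass in PA vs BSA by DESeq2 (adjusted p = 0.048) and by edgeR without BSA replicate 3 (adjusted p = 0.0118). Cars2, the mitochondrial cysteinyl enzyme, was at 9.86, 9.09 and 10.1 FPKM with BSA, 9.70, 9.79 and 10.2 with PA, and 10.8, 11.6 and 10.3 with PA + C3G, and its PA + C3G libraries lay above all others (log2 fold change 0.23 ± 0.08, edgeR adjusted p = 0.0389). Sars2, the mitochondrial seryl enzyme, was at 8.18, 7.96 and 6.51 FPKM with BSA, 5.83, 6.42 and 6.59 with PA, and 5.54, 5.76 and 5.77 with PA + C3G. Its PA + C3G libraries were below all others, and the log2 fold change against BSA was -0.35 ± 0.10 (edgeR, adjusted p = 0.0216), so Sars1 was higher and Sars2 lower than in the control.

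The other 9 of these 13 calls were each lost when 1 library was left out. Cars2 was lost without each library but PA + C3G replicate 3 (edgeR, adjusted p between 0.0559 and 0.144), and Mars1 without each but BSA replicate 1 and PA replicate 2 (edgeR, adjusted p between 0.0522 and 0.154). Each was also lost under 6 other settings by edgeR or limma, Cars2 with adjusted p between 0.0663 and 0.119 and Mars1 with adjusted p between 0.0508 and 0.225. Rars1 was lost without each but BSA replicate 2 and PA + C3G replicate 1 (edgeR, adjusted p between 0.0512 and 0.111), and Dars without BSA replicate 1 or 3, PA replicate 3 or PA + C3G replicate 2 or 3 (edgeR, adjusted p between 0.0509 and 0.0927). Hars1 was lost without BSA replicate 1 or 3 or PA + C3G replicate 1 or 3 (edgeR, adjusted p between 0.0519 and 0.0767), and Hars2 without BSA replicate 1 or 2 or PA + C3G replicate 1 or 2 (edgeR, adjusted p between 0.0576 and 0.0841). Pars2 was lost without BSA replicate 2 or 3 or PA + C3G replicate 1 or 2 (edgeR, adjusted p between 0.0703 and 0.0979). Sars2 was lost without BSA replicate 1 or 2 or PA + C3G replicate 1 (edgeR, adjusted p between 0.0563 and 0.0762), and Vars2 without BSA replicate 1 or PA + C3G replicate 2 (edgeR, adjusted p between 0.0574 and 0.0575). Other settings also lost Rars1 (DESeq2, and edgeR with no filter, only the 2 groups or the replicate block, adjusted p between 0.0506 and 0.0964), Hars1 (edgeR with TPM scaling, and limma, adjusted p between 0.0971 and 0.103) and Vars2 (limma, adjusted p between 0.0649 and 0.0686). Dars was lost with no filter or only the 2 groups (edgeR, adjusted p between 0.0547 and 0.0712), and Pars2 with no filter (edgeR, adjusted p = 0.0515).

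Grouped by promoter, the 7 cytosolic genes with the CARE letters held no riser with PA: 3 fell and 4 did not pass (edgeR; also none higher at an unadjusted p under 0.05), with a median log2 fold change of -0.13. Of the 10 without them, 5 rose, 3 fell and 2 did not pass, with a median of 0.11. This was 42.9% called with the letters and 80.0% without, beside 51% of all genes tested (25.8% higher and 25.2% lower). The 3 cytosolic genes with no promoter entry, Dars, Gars and Rars1, all fell. In PA + C3G vs PA, the 7 with the letters had log2 fold changes from 0.03 to 0.41 with a median of 0.19. Of them 3 were higher and none lower. The 10 without ran from -0.23 to 0.26 with a median of -0.12, 2 higher and 3 lower. This was 42.9% and 50.0% called, beside 21.2% of all genes (11.1% higher and 10.2% lower). The signs and calls depended on the processing. Among the 7, Iars1 and Nars1 reached -0.06 and -0.05 under the alternatives, and Tars1 and Yars1 lost their calls with TPM scaling. These are descriptions of small groups with no test, and genes that share an element are not independent.

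**Figure D4:**
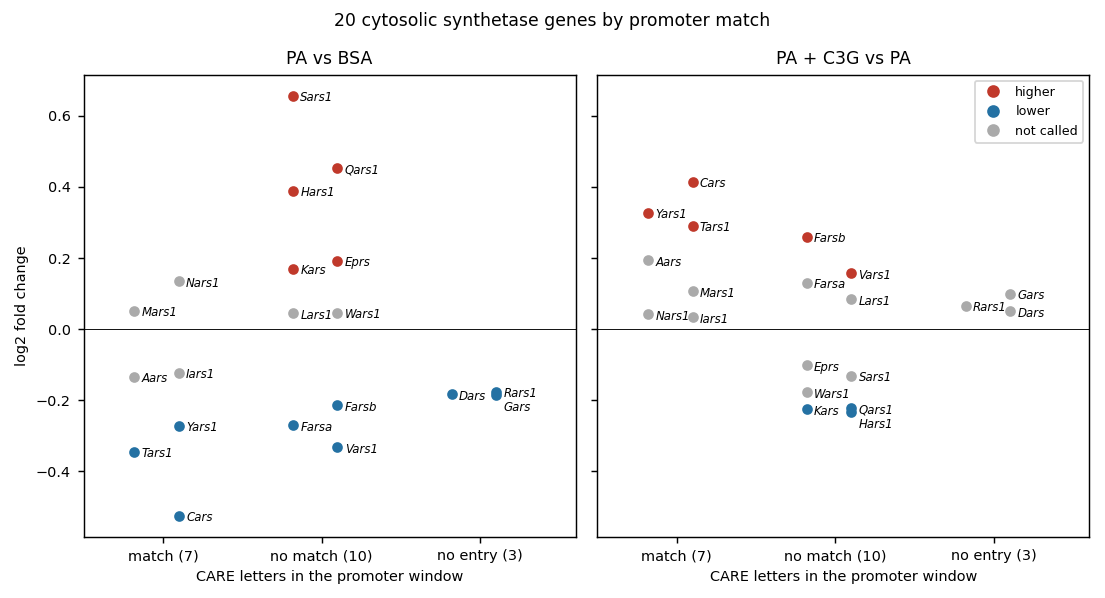
Log2 fold change (y axis) of the 20 cytosolic genes, grouped by whether the 300-base RefSeq promoter held the CARE letters (7 genes), did not (10) or had no entry (3); each point is 1 gene and colours give the call. With PA the risers, from Kars (0.17) to Sars1 (0.66), are all in the group without a match.

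Within the multi-synthetase complex members moved in both directions with PA, as did all genes tested (25.8% higher and 25.2% lower). Of its 8 synthetases, 5 were called (62.5%, beside 51% of all genes). Eprs, Qars1 and Kars rose, Dars and Rars1 fell, and Iars1, Lars1 and Mars1 did not pass. Of its 3 scaffold subunits, Aimp1 rose (0.44, edgeR adjusted p = 0.000666) and Aimp2 (-0.23, edgeR adjusted p = 0.00686) and Eef1e1 (-0.16, edgeR adjusted p = 0.0125) fell. With C3G against PA, Qars1 and Kars of the 8 synthetases were lower and none was higher (edgeR). This was 25.0%, near the 21.2% of all genes. No scaffold subunit passed (edgeR, log2 fold changes from -0.07 to 0.13). By fold of the catalytic domain, of the 19 class I enzymes 5 rose and 4 fell with PA (47.4%) and of the 19 class II enzymes 5 rose and 7 fell (63.2%), beside 51% of all genes. Eprs, the joint glutamyl and prolyl enzyme, was counted in class I only, although its prolyl part is of class II.

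Neighbouring steps of translation were read from lists of their own, beside shares over all genes of 25.8% higher and 25.2% lower with PA and of 11.1% higher and 10.2% lower in PA + C3G vs PA. Of 5 proofreading factors 2 were called with PA (40.0%), beside 51% of all genes. Aarsd1, which removes serine from mischarged alanine tRNA, fell with PA (-0.57, edgeR adjusted p = 3.74e-05) and Prorsd1 rose (0.89, edgeR adjusted p = 0.000894), while the other 3 did not pass, and Aarsd1 was higher in PA + C3G vs PA (0.20, edgeR adjusted p = 0.0471). Of 7 cytosolic elongation genes 5 were called with PA (71.4%): 4 rose, among them Eef2 (0.72), the translocase, and Eef1a1 (0.29), which carries charged tRNA to the ribosome, and 1, the Eef2 kinase Eef2k, fell (-0.44). In PA + C3G vs PA, 3 of the 7 were lower, which were Eef2 (-0.41), Eef1a1 (-0.29) and Eef1g (-0.26). Of 4 mitochondrial elongation genes 2 were called with PA (50.0%), near the share of all genes. Tufm, the counterpart of Eef1a1, rose with PA (0.29) and was lower with C3G (-0.32), and Tsfm, its exchange factor, rose with PA (0.46).

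The sensor of uncharged tRNA and its effector were read from a list of 5 genes, all of which passed with PA, 4 higher and 1 lower, where 51% of all genes did. Eif2ak4, the GCN2 kinase, rose by 0.56 (edgeR, adjusted p = 2.35e-05), Atf4 by 0.48 (edgeR, adjusted p = 0.000815) and Impact, an inhibitor of GCN2 activation, by 0.32 (edgeR, adjusted p = 0.00078), and Gcn1, its partner, by 0.12. Eif2s1, the subunit of eIF2 that the kinase phosphorylates, fell (-0.34). With C3G against PA 1 of the 5, Eif2ak4, passed (-0.29, edgeR adjusted p = 0.00624), near the 21.2% of all genes, and Atf4 mRNA had a log2 fold change of 0.04. Translation of Atf4, the step that is regulated, was not measured.

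Of 16 further ATF4 target genes, 15 were tested and Phgdh was below the filter. With PA 5 rose and 4 fell (60.0%, beside 51% of all genes): Ddit3 (CHOP, 1.33), Atf3, Trib3, Atf5 and Vldlr were higher, and Psat1 (-0.77), Shmt2, Psph and Slc7a5 were lower. The risers are stress regulators or a lipoprotein receptor, and the genes that fell make serine and glycine or import amino acids. In PA + C3G vs PA 10 of 15 were called (66.7%, beside 21.2% of all genes). The 8 that were higher were Psph (0.61), Chac1 (0.49), Shmt2 (0.42), Psat1 (0.38), Slc7a5 (0.32), Sesn2 (0.31), Asns (0.28) and Atf5 (0.15), and the 2 that were lower were Ddit3 (-0.70) and Vldlr (-0.18). The 72 bases that Mars1 (7:70585013-70602310, minus strand) shares with the end of Ddit3 on the other strand could add reads to either if strand was not used in counting, and Mars1 did not pass with PA (0.05 ± 0.05).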

How the data were processed

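Polyadenylated RNA of 9 INS-1E libraries, 3 per group, was sequenced by the authors from strand-specific paired-end libraries. The authors deposited 1 table with an estimated count per gene and library, not normalized, and the FPKM, scaled by gene length and mapped fragments. The submitters' processing notes name cutadapt 1.9, HISAT2 2.0.4, StringTie 1.3.4d, DESeq2 and edgeR without roles. The genome build of the table's coordinates and the use of strand in counting are not given in the sources used here, and coordinates of promoters are on GRCr8 and were not mixed with them.

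The estimated counts are whole numbers (45559993 to 66730721 per library), with values of 4 a factor of 2.44 more frequent than the mean of 3 and 5, so fewer independent fragments may lie behind them. The precision of each level is limited by the 3 libraries. Genes whose FPKM averaged 1 or more were tested with edgeR 4.0.16 (R 4.3.3, TMM, quasi-likelihood F test, all 3 groups in 1 fit), with Benjamini-Hochberg adjustment over 12958 genes and calls at an adjusted p under 0.05. The SE is the log2 fold change over the root of F. Alternatives were DESeq2 1.42.0, limma 3.58.1 on log2(FPKM + 1) and log2(FPKM + 0.1), other scalings and filters, the replicate number as a block, counts divided by 4, and leaving out each library.

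Members followed the KEGG field, and per-library values are given for the 8 largest rises and falls with PA, 5 each for PA + C3G vs PA and 4 each for PA + C3G vs BSA among those called. Members, lists and tests were chosen with earlier results of these data known. Promoters (RefSeq, 250 bases before and 50 after the start) matched 40 of 46 members by gene identifier or, failing that, by symbol or synonym. Both Gatc entries matched the same promoter. Motifs were searched on both strands. The values of 1 member are not reported here and are not drawn, and it is counted in the totals.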

Additional observations from a re-analysis of the deposited data

How the results depend on the processing

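No member that passed, and no mitochondrial median, changed sign under the alternatives. The cytosolic median of PA + C3G vs PA was 0.07 and became -0.01 with TPM scaling, and that of PA + C3G vs BSA, -0.00, lay between -0.05 and 0.03 without 1 library. The counts of cytosolic calls with PA stayed between 12 and 15 when 1 library was left out, and their median between -0.19 and -0.10. Mitochondrial calls with PA ranged from 3 (without PA replicate 3) to 6 when 1 library was left out, and the median from 0.0063 (without BSA replicate 2) to 0.055. With DESeq2, 4 mitochondrial genes were higher and 3 lower. The median was 0.073 with TPM scaling and 0.0174 and 0.0182 with limma at the pseudocounts of 1 and 0.1. For PA + C3G vs PA, cytosolic calls were 5 with limma at either pseudocount and 4 to 9 without 1 library. Mitochondrial calls were 0 to 2 without 1 library (0 without PA replicate 2, PA + C3G replicate 1 or PA + C3G replicate 3), and the median was -0.16 with TPM scaling, -0.105 and -0.111 with limma, and -0.11 to -0.054 without 1 library. For PA + C3G vs BSA, cytosolic calls were 4 with no filter and 3 to 8 without 1 library. Mitochondrial calls were 3 with no filter and with limma at either pseudocount, and 1 to 5 without 1 library (1 without BSA replicate 1, PA + C3G replicate 1 or PA + C3G replicate 2). The median was -0.084 with TPM scaling, -0.0759 and -0.0887 with limma, and -0.051 to -0.00044 without 1 library. TPM scaling moved the median of all genes to -0.09 for PA + C3G vs PA, -0.05 for PA + C3G vs BSA and 0.03 for PA vs BSA. A mean FPKM of at least 5 left 40 members. Apart from these constructions, the cause was not tested.

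Replicate numbers showed at most weak pairing of the libraries over all genes. Deviations of same-numbered libraries correlated between -0.0918 and 0.0796 across genes, and each library correlated best with its own number only between PA and PA + C3G. Correlations over all genes cannot decide whether the libraries were paired in these members. With the replicate block, 25, 13 and 14 members were called for PA vs BSA, PA + C3G vs PA and PA + C3G vs BSA, of them 16, 11 and 9 cytosolic and 6, 2 and 4 mitochondrial. The lowest estimated count of a member in a library was 276.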

Other observations

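Among the cytosolic synthetases, the lowest library of a group was often replicate 2. In BSA, replicate 2 had the lowest FPKM of the 3 libraries for 16 of 20 cytosolic genes (80.0%), where it was lowest for 39.0% of all tested genes. In PA replicate 2 was lowest for 15 of 20 (75.0%, against 38.8% of all tested genes), and in PA + C3G for 10 of 20 (50.0%, against 34.2%). It was lowest in all 3 groups for 7 of 20 (35.0%, against 9.02% of all tested genes). Of the 17 mitochondrial genes, replicate 2 was lowest for 8 in BSA, 5 in PA and 3 in PA + C3G. The pattern was noticed in the values and was not tested. The summed cytosolic level was 1467 FPKM in BSA replicate 2 against 1650 and 1585 in the other control libraries, and 1504 in PA replicate 2 against 1593 and 1600.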
